A study of Mus musculus with 32 samples.

Results

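Astrocytes and cells of the oligodendrocyte lineage were sorted from the cortices and spinal cords of mice at 3 months of age, and their RNA was sequenced. Astrocytes were selected with the antibody ACSA2 (4 libraries) and the oligodendrocyte lineage with the antibody O4 (4 libraries), and these 8 of the 32 libraries of the series are compared here, gene by gene. Both sorts came from mice of the genotype TDP-43_Q331K, in which TDP-43, an RNA-binding protein linked to amyotrophic lateral sclerosis, carries the change Q331K. Libraries of mice without it were not analysed here, so every value below belongs to glia of this genotype, and the promoter that drives the allele and the number of animals behind a library are not stated in the labels. Both sorts were processed with the same RNA purification kit and the same poly(A) library kit, which adds a unique molecular identifier to each molecule. Nothing in the labels says whether replicate libraries came from separate animals, so the p-values measure the spread between these libraries, which may be technical. Cell type, sorting antibody and the table in which a library was deposited change together and cannot be told apart.

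Astrocytes clear glutamate and potassium from the space around synapses, make lipoproteins, store glycogen, contact blood vessels with their end feet and are coupled to each other by gap junctions. Cells of the oligodendrocyte lineage pass from dividing precursors through a short-lived newly formed stage to myelinating cells, which wrap axons in a membrane rich in cholesterol, galactolipids and a few abundant proteins. Both arise from related neural progenitors, and each holds gene family members of which the other uses a close relative.

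Of 15100 genes tested, 10231 (67.8%) differed at an adjusted p under 0.05 (edgeR quasi-likelihood test, Benjamini-Hochberg adjustment), here named called. Of all genes tested, 5339 (35.4%) were called higher in astrocytes and 4892 (32.4%) higher in the O4 sort, and the counts of every list below are to be read beside these shares. Levels are given as CPM, counts relative to library size after TMM scaling, and differences as log2 fold changes ± SE, positive where the ACSA2 sort was higher. A stricter test of differences larger than 2-fold passed 3625 genes (24% of those tested), with 2814 (18.6% of those tested) higher in astrocytes and 811 (5.37%) in the O4 sort. The asymmetry grew with size. Among these genes 1206 were at least 10-fold higher in astrocytes and 31 in the O4 sort, and at 50-fold the counts were 328 and 1. The median log2 fold change over all genes tested was 0.021. With limma on the log2 of the deposited TPM, which are scaled for gene length, in place of edgeR on counts, that median was 0.13. The number of genes beyond 2-fold higher in the O4 sort was then 326, with test and scale changed together. With limma-voom on the counts 3144 genes passed beyond 2-fold, 81.6% of them higher in astrocytes.

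The ACSA2 libraries held 7604222 to 20763190 counts and the O4 libraries 12870293 to 18598533, over 55291 listed genes. Correlations of log2 CPM were at least 0.986 between libraries of a sort and between 0.813 and 0.875 across the sorts. The feature listed as CT010467.1 took 1.834% to 4.819% of counts in a library, and 9 genes in all took over 1% in some library.

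**Figure D1:**
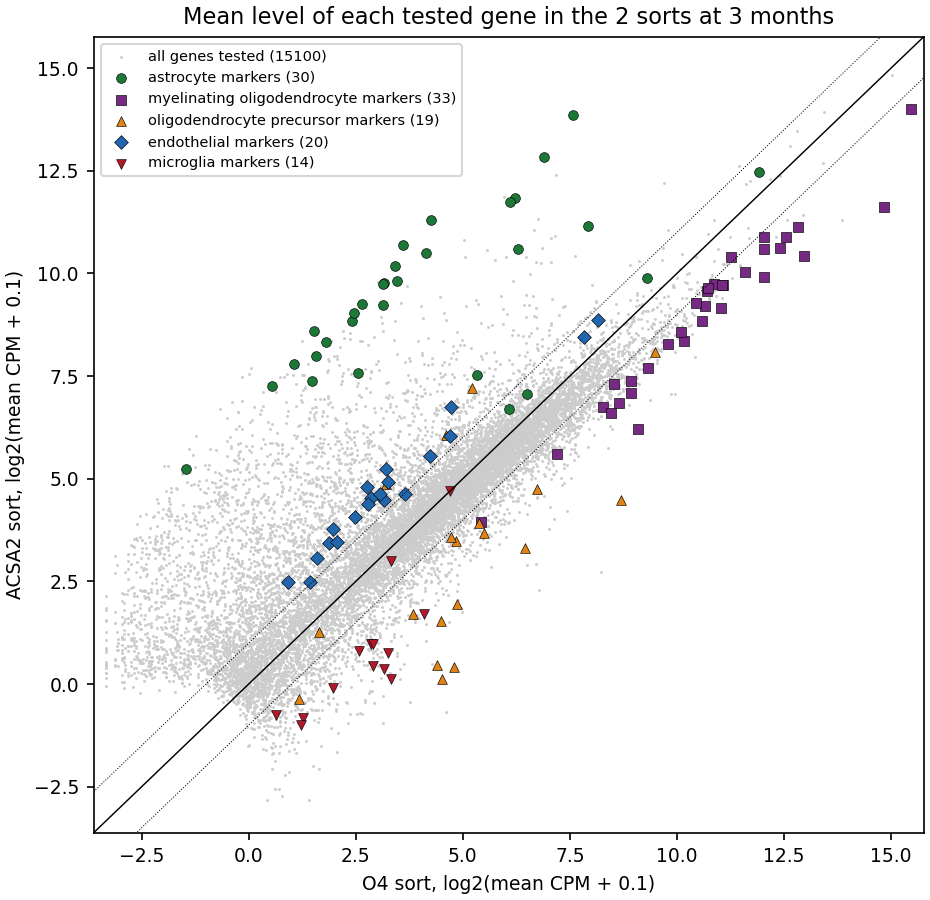
Mean level of each of the 15100 tested genes in the O4 sort (x axis) and in the ACSA2 sort (y axis), both as log2 of mean CPM plus 0.1, with the solid line at equal levels and dotted lines at a 2-fold difference. Most astrocyte markers (30 genes) lie far above the lines, while the 33 myelinating oligodendrocyte markers lie in a band just below the lower line, at high levels in both sorts.

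The largest differences toward the ACSA2 sort included genes of motile cilia. Promoters of some of them that hold a short element are shown first. The X-box is the DNA element bound by RFX transcription factors, which control genes of cilia. It was searched on both strands of the 250 bases before each start site as GTTNCC followed, after 3 or 2 bases of any kind, by GNAAC. Genes were counted, each once if any of its searched promoters held the element. It was found for 15 of 237 genes at least 50-fold higher in astrocytes (6.33%) and 51 of 2042 beyond 2-fold higher in astrocytes (2.5%). The counts were 5 of 570 for genes beyond 2-fold higher in the O4 sort (0.877%) and 179 of 11092 for all tested genes (1.61%). Over all genes with a searched promoter the count was 391 of 27025 (1.45%). Windows from promoters of 6 genes follow, picked because they held the element and were at least 50-fold higher in astrocytes. The windows are printed 5′ to 3′ on the strand of the gene, with the element in capitals. They come from RefSeq promoters on GRCm38.p6: Dnah9 at chr11:66168599-66168655 (minus strand), Hydin at chr8:110266934-110266976 (plus strand), Cfap44 at chr16:44394750-44394798 (plus strand), Dynlrb2 at chr8:116504942-116504998 (plus strand), Dnaic1 at chr4:41569753-41569793 (plus strand) and Pifo at chr3:106001498-106001539 (minus strand).
Dnah9: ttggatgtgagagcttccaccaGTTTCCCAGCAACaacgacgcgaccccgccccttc
Hydin: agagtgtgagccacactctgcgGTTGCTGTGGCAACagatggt
Cfap44: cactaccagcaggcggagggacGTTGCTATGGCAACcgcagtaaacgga
Dynlrb2: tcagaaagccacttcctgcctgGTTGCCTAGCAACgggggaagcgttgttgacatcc
Dnaic1: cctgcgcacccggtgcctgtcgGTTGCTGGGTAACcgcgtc
Pifo: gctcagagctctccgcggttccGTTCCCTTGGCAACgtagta
In Hydin, Cfap44 and Dnaic1 the element lies on the opposite strand and is printed as it reads on the strand of the gene.

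Each of these 6 genes belongs to the machinery of motile cilia, and each was near absence in the O4 sort. Dynlrb2 and Pifo are also members of the list of choroid plexus and ependymal markers described below. Ependymal cells bear motile cilia, and the part of their RNA in the values of this paragraph was not tested. Dnah9 and Dnaic1 encode a heavy and an intermediate chain of axonemal dynein, and Dynlrb2 a light chain of dynein. Dnah9 was at 60.5, 75.5, 83.1 and 76.2 CPM in the ACSA2 libraries and at 0.542, 1.2, 0.626 and 0.515 CPM in the O4 libraries (6.6 ± 0.19, adjusted p = 6.14e-12). Hydin, a protein of the central pair of the axoneme, averaged 74.6 and 0.793 CPM (6.47 ± 0.27). The RFX genes themselves were also higher in astrocytes, with Rfx4 at 110 and 2.06 CPM (5.70 ± 0.22), Rfx2 at 27.4 and 1.65 CPM (4.02 ± 0.19) and Rfx3 at 102 and 23.5 CPM (2.12 ± 0.09). Foxj1, the other main regulator of motile cilia, was higher by 1.69 ± 0.15. The windows, the motif and the genes in this and the preceding paragraph other than Dynlrb2 were chosen after their values were seen.

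A second set of promoters is shown for myelin genes. SOX factors, among them SOX10, which the oligodendrocyte lineage needs in order to myelinate, bind short elements that contain ACAATG or ACAAAG. Counted by gene as above, these letters were on either strand for 13 of 23 searched myelinating oligodendrocyte markers (56.5%). The share was 26% for genes beyond 2-fold higher in the O4 sort, 20.7% for all tested genes and 28.2% for all genes with a searched promoter. For genes higher in astrocytes it was 23.8% beyond 2-fold and 29.5% at 50-fold or more, so the letters were not particular to genes of the O4 sort. The windows, again on GRCm38.p6 with the match in capitals, are Cnp at chr11:100574750-100574799 (plus strand), Opalin at chr19:41077225-41077274 (minus strand), Hapln2 at chr3:88027519-88027568 (minus strand) and Gjb1 at chrX:101383653-101383702 (plus strand).
Cnp: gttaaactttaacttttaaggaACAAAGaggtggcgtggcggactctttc
Opalin: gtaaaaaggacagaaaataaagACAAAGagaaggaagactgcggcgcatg
Hapln2: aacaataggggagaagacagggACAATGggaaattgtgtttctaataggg
Gjb1: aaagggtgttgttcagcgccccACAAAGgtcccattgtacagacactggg
In the Gjb1 window the reverse complement of ACAATG also occurs and is left in lower case. All 4 genes were higher in the O4 sort, by 1.66 (Cnp), 1.54 (Opalin), 1.62 (Hapln2) and 1.85 (Gjb1) on the log2 scale, with SE of 0.12 to 0.14. Across both sets 15 motif definitions were counted, chosen after the values were seen. Among them, the FOX letters GTAAACA were found for 18 of 237 genes at least 50-fold higher in astrocytes (7.59%). Their share over all tested genes was 2.8%. A match describes these letters in these windows and is no evidence of binding.

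The sorts were first checked against the antigens of their antibodies. ACSA2 recognises the product of Atp1b2, a subunit of the sodium-potassium pump. Atp1b2 was at 3760, 3810, 3750 and 2360 CPM in the ACSA2 libraries and at 73.6, 91.7, 59.7 and 48.3 CPM in the O4 libraries (5.64 ± 0.24, adjusted p = 6.15e-10). O4 recognises sulfatide, a galactolipid whose last step is made by the enzyme of Gal3st1 (chromosome 11, 3983636 to 3999326 in GENCODE vM21 on GRCm38, the annotation of all positions below). Gal3st1 was at 48.2, 39.9, 51.3 and 62.8 CPM in the ACSA2 libraries and at 198, 187, 202 and 199 CPM in the O4 libraries (-1.95 ± 0.12). Ugt8a, which makes the galactolipid that Gal3st1 sulfates, was lower in astrocytes by 1.34 ± 0.17 on the log2 scale, so both genes of this pathway were also present in the ACSA2 sort.

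Markers matched the label of each sort. All 30 astrocyte markers were called higher in the ACSA2 sort and 26 passed beyond 2-fold, with a median log2 fold change of 6.35 beside 0.021 over all genes. Slc1a2, the main glutamate transporter of astrocytes (chromosome 2, 102658659 to 102790784), was at 15400, 16600, 16900 and 10500 CPM in the ACSA2 libraries and at 227, 304, 122 and 106 CPM in the O4 libraries (6.29 ± 0.40, adjusted p = 1.76e-07). The water channel gene Aqp4 was at 933, 960, 971 and 716 CPM against 11.2, 17.6, 6.26 and 8.58 CPM (6.35 ± 0.31). Aldh1l1, an enzyme of folate metabolism used to mark astrocytes, averaged 191 ± 38.4 and 5.73 ± 1.71 CPM (SD, n = 4 in each sort). In Slc1a2, Aqp4 and Atp1b2 ACSA2 replicate 4 was the lowest of its group and still far above every O4 library. The 4 astrocyte markers with the smallest differences were Glul (glutamine synthetase, 0.54 ± 0.14), the adhesion gene Hepacam (0.58 ± 0.11), the intermediate filament gene Gfap (0.59 ± 0.20) and Fgfrl1, a member of the fibroblast growth factor receptor family (0.63 ± 0.14). Gfap was at 105, 153, 121 and 160 CPM in the ACSA2 libraries and at 69.5, 76.3, 89.6 and 124 CPM in the O4 libraries, so the groups overlapped. Its call (adjusted p = 0.0223, edgeR) was lost without ACSA2 replicates 2 or 4 or O4 replicates 1 or 2. Its log2 fold changes were then 0.46 to 0.53.

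In the O4 sort all 33 measured markers of myelinating oligodendrocytes were called higher and 27 passed beyond 2-fold, but with a median of only -1.54. Mbp, which compacts the myelin membrane, was at 2940, 2850, 3160 and 3520 CPM against 21600, 21400, 29200 and 44800 CPM (-3.23 ± 0.24). The myelin surface gene Mog averaged 462 ± 77.9 and 1530 ± 86.7 CPM (-1.73 ± 0.13). The libraries of the sorts did not overlap for Mbp and Mog, as for 63.3% of all genes tested, and no ACSA2 library was near 0 for either gene.

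The level of each sort's markers in the other sort was therefore very unequal. Astrocyte markers had in the O4 sort a median of 1.21% of their level in the ACSA2 sort, from 0.694% (Ppp1r3g) to 68.8% (Glul). Myelinating markers had in the ACSA2 sort a median of 34.4% of their level in the O4 sort, from 10.7% (Mbp) to 55.2% (Car2), and none was under 10%. For the earlier stages the median was 28% over 19 precursor markers and 43.5% over 20 markers of newly formed cells, with single genes far lower or higher. Gpr17, a receptor of the short stage between precursor and myelinating cell, was at 5.33, 3.6, 4.94 and 12.3 CPM in the ACSA2 libraries and at 255, 271, 394 and 287 CPM in the O4 libraries (-5.39 ± 0.36, adjusted p = 2.11e-06), or 2.17%. Bmp4, a signal made at the same stage, was at 0.64 and 13.4 CPM (-4.47 ± 0.24). The precursor genes C1ql1 (4.32%, -4.33 ± 0.39), Neu4, a sialidase (-4.26 ± 0.33), and Tnr, an extracellular matrix protein (-4.19 ± 0.33), were also low in astrocytes. Pdgfra, the growth factor receptor that defines precursors, was at 7.9, 7.81, 7.83 and 16 CPM against 99.9, 58.1, 138 and 51.9 CPM (-3.06 ± 0.43). These low levels were those of a few genes, since 4 of the 19 precursor markers and 2 of the 20 markers of newly formed cells were under 10%. Of the precursor markers 15 were higher in the O4 sort, 3 were higher in astrocytes and 1 was not called, and the 3 were Xylt1 (1.98 ± 0.22), Rlbp1 and Sox6. Of the markers of newly formed cells 17 were higher in the O4 sort and 3 in astrocytes, namely Itpr2, Tcf7l2 and Prom1.

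**Figure D2:**
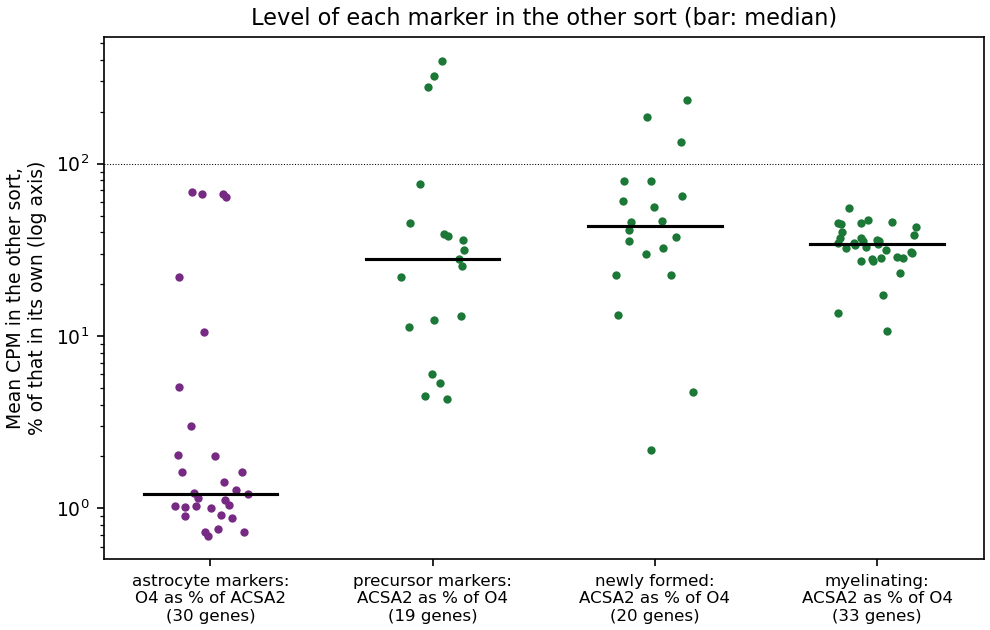
Mean CPM of each marker gene in the other sort as a percent of its mean CPM in its own sort (y axis, log scale), for 30 astrocyte markers, 19 precursor markers, 20 markers of newly formed cells and 33 myelinating markers, with the median as a bar. Most astrocyte markers cluster near 1% in the O4 sort, the myelinating markers lie together around 34.4% in the ACSA2 sort, and the earlier stages spread from 2.17% to 397%.

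The sizes of the differences given above can also be put as levels in the other sort. These are the same fold changes, for genes selected by them, and add no second test. Of the 2814 genes beyond 2-fold higher in astrocytes, 1221 (43.4%) had in the O4 sort under 10% of their astrocyte level, with a median of 12.2%. Of the 811 genes beyond 2-fold higher in the O4 sort, 32 (3.95%) had in the ACSA2 sort under 10% of their O4 level, with a median of 30.6%. In these bulk samples fewer cells of a type and less RNA per cell cannot be told apart, and the part that RNA or cells of the other type had in these levels was not tested. The summed level of the myelinating markers was 32200 to 49900 CPM in the ACSA2 libraries, highest in replicate 4, which also had the lowest sum of astrocyte markers (39100 against 58100 to 58300 CPM). Without that library 3796 genes passed beyond 2-fold, 943 of them higher in the O4 sort.

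Markers of other cell types moved with the sorts. All 20 endothelial markers were called higher in the ACSA2 sort, with summed levels of 1070 to 1530 CPM against 624 to 743 CPM. Pecam1, an endothelial adhesion gene (chromosome 11, 106654217 to 106750628), was at 15.2, 24.1, 25.8 and 27.6 CPM against 5.89, 8.7, 6.03 and 8.15 CPM (1.69 ± 0.19). Among mural and fibroblast markers 11 of 14 were higher in astrocytes, among them the pericyte receptor gene Pdgfrb (114 and 5.58 CPM, 4.34 ± 0.18), Abcc9 (4.24 ± 0.18) and Notch3 (2.44 ± 0.15), and 1 was higher in the O4 sort, Cspg4, which oligodendrocyte precursors also express. Microglia markers went the other way, with 12 of 14 higher in the O4 sort and none in the ACSA2 sort. Their summed levels were 46.3 to 53.7 and 72.8 to 143 CPM, and Csf1r, a growth factor receptor of microglia, averaged 3.19 and 17.1 CPM. No marker of these lists was at 0 in all libraries of a sort. The part of vascular or microglial RNA in the genes described below was not tested.

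**Figure D3:**
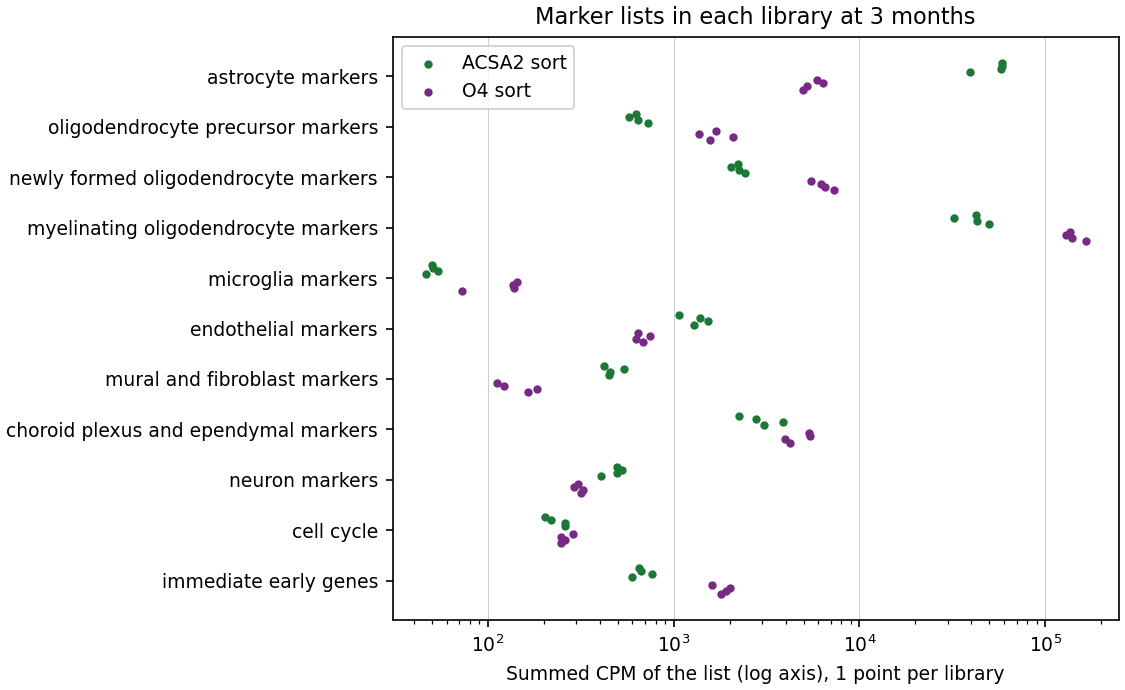
Summed CPM of each marker list (x axis, log scale), with 1 point per library in green for the ACSA2 sort and purple for the O4 sort. The sorts differ most in astrocyte markers (39100 to 58300 against 4990 to 6390 CPM), while the myelinating markers reach 32200 CPM or more in every library of both sorts.

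Ependymal cells, which line the ventricles and bear motile cilia, and the choroid plexus were covered by 1 list. Of its 16 members 8 were higher in astrocytes, 1 was higher in the O4 sort and 7 were not called. Over all genes 35.4% were higher in astrocytes and 32.4% in the O4 sort. The largest differences were those of Ccdc153 (89.6 and 0.599 CPM, 7.15 ± 0.35), Tmem212 (7.13 ± 0.28), Rarres2 (6.62 ± 0.18) and Dynlrb2 (6.01 ± 0.17). The choroid plexus gene Ttr, a thyroid hormone carrier, was at 175, 760, 1230 and 426 CPM in the ACSA2 libraries and at 786, 963, 137 and 37.3 CPM in the O4 libraries, a spread wider than any difference between the sorts (0.43 ± 1.08, adjusted p = 0.743). Enpp2 is high in choroid plexus and in myelin and was higher in the O4 sort (-1.13 ± 0.14). Without Enpp2 and Ttr the list summed to 343 to 549 CPM in the ACSA2 sort and 49.2 to 127 CPM in the O4 sort. Of 16 neuron markers 6 were higher in astrocytes, close to the share of 35.4% over all genes, and 3 in the O4 sort (32.4% over all genes). The other 7 were not called, Snap25 among them (0.36 ± 0.26).

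Every tested lineage transcription factor differed between the sorts. Of 49 tested lineage factors 31 were higher in astrocytes, 18 in the O4 sort and 0 were not called, against 67.8% called over all genes. Sox9, which acts in glial progenitors and astrocytes (chromosome 11, 112782224 to 112787760), was at 683, 667, 674 and 410 CPM in the ACSA2 libraries and at 6.97, 11.3, 3.24 and 3.26 CPM in the O4 libraries (6.59 ± 0.44). The effectors of hedgehog signalling Gli2 (67.1 and 0.953 CPM, 6.09 ± 0.20) and Gli3 (138 and 1.15 CPM, 6.86 ± 0.21) and the inhibitor of differentiation Id2 (205 and 6.48 CPM, 4.97 ± 0.14) were among the largest. Sox10 (chromosome 15, 79154908 to 79165240) was at 367, 281, 389 and 404 CPM against 1000, 1210, 1080 and 1130 CPM (-1.62 ± 0.12). The homeobox gene Nkx6-2 (-1.76 ± 0.12), Nfe2l3 (-1.43 ± 0.11) and Olig2 (188 and 396 CPM, -1.08 ± 0.09) were higher in the O4 sort by amounts close to that of Sox10. Sox6, which also acts in precursors, was higher in astrocytes (1.47 ± 0.13), as was Tcf7l2 of newly formed cells (0.89 ± 0.10).

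Within gene families members differed between the 2 sorts in opposite directions. Gap junctions join astrocytes to each other and to oligodendrocytes, and each cell type supplies its own connexins. Gja1 (connexin 43, chromosome 10, 56377330 to 56402513) was at 2960, 2640, 2680 and 1800 CPM in the ACSA2 libraries and at 20.4, 32, 5.07 and 19 CPM in the O4 libraries (7.04 ± 0.57, adjusted p = 1.14e-05). Gjb6 averaged 324 and 3.39 CPM (6.63 ± 0.42). The oligodendrocyte connexins were Gjb1 (146, 102, 138 and 157 against 478, 490, 509 and 482 CPM, -1.85 ± 0.12) and Gjc3 (391 and 828 CPM, -1.08 ± 0.11). Both were thus also present in the ACSA2 sort. Among other tested members of the family, Gjc1 was higher in astrocytes (2.57 ± 0.30) and Panx1, a channel related to connexins in fold, in the O4 sort (-2.32 ± 0.32). Gjb2 (0.57 ± 0.22) and Gja4 (0.79 ± 0.29) were called higher in astrocytes, but each lost its call without some single library, and Panx2 was not called (-0.95 ± 0.42). Another 13 connexin and pannexin genes were too low to test.

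**Figure D4:**
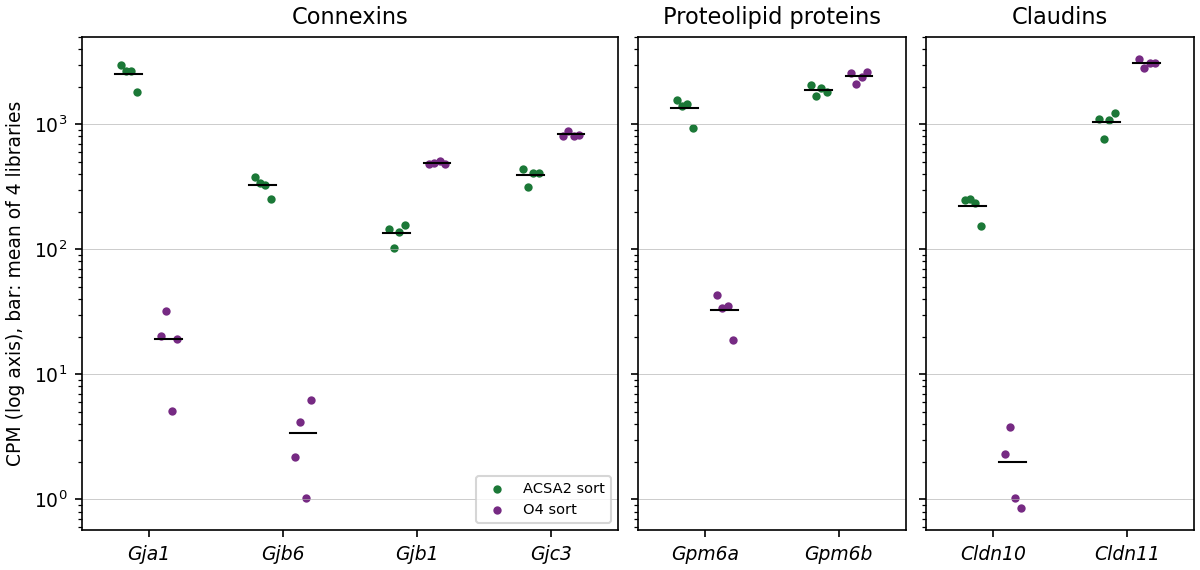
CPM (y axis, log scale) of 4 connexins, 2 proteolipid proteins and 2 claudins in each of 4 libraries of the ACSA2 sort (green) and of the O4 sort (purple), with bars at the means. Gja1, Gjb6, Gpm6a and Cldn10 drop by more than a factor of 10 from the ACSA2 to the O4 sort, while Gjb1, Gjc3 and Cldn11 are higher in the O4 sort by smaller amounts.

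Of the proteolipid protein family, Gpm6a and Gpm6b are described. Gpm6a (chromosome 8, 54954843 to 55060871), known from neuronal processes, was at 1560, 1410, 1460 and 933 CPM in the ACSA2 libraries and at 43.2, 34.2, 35.2 and 18.9 CPM in the O4 libraries (5.35 ± 0.27). Gpm6b, present in both glial types, differed little (1880 ± 166 and 2430 ± 228 CPM, -0.37 ± 0.12, adjusted p = 0.0122). Claudins, which seal membranes to each other, also differed: Cldn10 was at 221 and 2 CPM (6.74 ± 0.38), while Cldn11, which closes the layers of the myelin sheath, was at 1040 and 3080 CPM (-1.56 ± 0.14) and Cldn14 at 5.36 and 29.5 CPM (-2.44 ± 0.16). Of 14 tested claudins and tetraspan junction genes 6 were higher in each sort and 2 were not called. Over all genes 35.4% were higher in astrocytes and 32.4% in the O4 sort.

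Of 33 genes of glutamate and GABA handling 21 were higher in astrocytes (35.4% over all genes), 10 in the O4 sort (32.4% over all genes, which is close to the share of the list) and 2 were not called, with a median of 1.55. Slc1a3, the second astrocyte glutamate transporter, averaged 3660 and 74.6 CPM (5.61 ± 0.28), the glutamine transporter gene Slc38a3 650 and 39.8 CPM (4.03 ± 0.15) and the cystine-glutamate exchanger gene Slc7a11 372 and 5.02 CPM (6.21 ± 0.16). A transporter of the same family as Slc1a2 went the other way: Slc1a1 was at 2, 3.24, 2.17 and 3.64 CPM against 23.5, 16.9, 33.6 and 27.1 CPM (-3.13 ± 0.25). The AMPA receptor gene Gria4 (-1.56 ± 0.13) and the glycine transporter gene Slc6a9 (-1.13 ± 0.09) were also higher in the O4 sort. The O4 count of 10 fell to 6 without ACSA2 replicate 2 or 3.

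For potassium, water and ion transport 22 of 33 genes were higher in astrocytes, 8 in the O4 sort and 3 were not called. The median was 1.85, and the shares over all genes were 35.4% and 32.4%. The calcium-activated potassium channel gene Kcnn2 averaged 50.8 and 0.773 CPM (6.05 ± 0.16), the calcium pump gene Atp2b4 70.9 and 4.67 CPM (3.91 ± 0.11) and the dystroglycan gene Dag1, which anchors end feet to the vessel wall, 360 and 77.5 CPM (2.22 ± 0.11). Kcnj10, the inward rectifier that buffers potassium in both cell types, did not pass: it was at 1350, 1320, 1410 and 1290 CPM in the ACSA2 libraries and at 1400, 1370, 1430 and 1410 CPM in the O4 libraries (-0.07 ± 0.10, adjusted p = 0.565), and with TPM on a log2 scale its sign turned. The axonal and glial potassium channel gene Kcna1 (-1.07 ± 0.11), the sodium-calcium exchanger gene Slc8a1 (-1.06 ± 0.10) and Ano10 (-0.76 ± 0.07) were higher in the O4 sort.

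Of 38 genes of glycolysis, glycogen and lactate 28 were higher in astrocytes and 4 in the O4 sort, with a median of 0.81, beside 35.4% and 32.4% over all genes. Ppp1r3g and Ppp1r3d, which target a phosphatase to glycogen, were at 37.6 and 0.261 CPM (7.08 ± 0.25) and at 25.1 and 0.86 CPM (4.88 ± 0.16), and the phosphofructokinase gene Pfkp at 140 and 13.2 CPM (3.40 ± 0.13). Lactate dehydrogenase Ldha was at 66.5 and 15.4 CPM (2.11 ± 0.11). The monocarboxylate transporter genes Slc16a3 (-1.81 ± 0.27) and Slc16a7 (-1.24 ± 0.12), whose products carry lactate and pyruvate, were higher in the O4 sort, as was the pyruvate dehydrogenase kinase gene Pdk3 (-1.35 ± 0.17). Among 36 genes of fatty acid oxidation and ketone bodies 23 were higher in astrocytes and 5 in the O4 sort, beside the same shares. They included Ppargc1a, a coactivator of mitochondrial genes (82 and 1.74 CPM, 5.52 ± 0.16), Acaa2 (3.60 ± 0.15) and Cpt1a, the entry step of fatty acids into mitochondria (159 and 26.2 CPM, 2.60 ± 0.11). Transcripts of the mitochondrial genome took 5.931% to 7.711% of counts in the ACSA2 libraries and 4.06% to 4.44% in the O4 libraries.

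Lipid genes went in both directions. Of 38 genes of sphingolipid and very long chain fatty acid synthesis 11 were higher in astrocytes (35.4% over all genes), 18 in the O4 sort (32.4% over all genes) and 9 were not called. The elongase gene Elovl2 (119 and 0.8 CPM, 7.16 ± 0.36) and the desaturase gene Fads2 (525 and 23.6 CPM, 4.47 ± 0.17), which act in turn to make polyunsaturated fatty acids, were higher in astrocytes. So were the ceramide synthase gene Cers6 and Hacd3, which acts in the elongation of very long chain fatty acids, by 3.18 ± 0.19 and 2.06 ± 0.12 on the log2 scale. Gal3st1, the glycolipid transfer protein gene Gltp (203 and 613 CPM, -1.60 ± 0.11) and the elongase gene Elovl1 (74.9 and 196 CPM, -1.38 ± 0.10), which makes the long saturated chains of myelin lipids, were higher in the O4 sort. Sterol carriers also went both ways. Apoe, the main lipoprotein of brain, was at 4960, 5210, 5380 and 3400 CPM in the ACSA2 libraries and at 826, 1070, 673 and 773 CPM in the O4 libraries (2.50 ± 0.18), with the cholesterol exporter gene Abca1 (2.51 ± 0.10) and Lcat, which esterifies cholesterol in lipoproteins (3.78 ± 0.12). Apod, an apolipoprotein of another family, was at 961 and 4160 CPM (-2.11 ± 0.16).

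Cholesterol synthesis differed by small amounts, with 5 of 25 genes higher in astrocytes, 11 in the O4 sort and 9 not called, and 1 beyond 2-fold. The shares over all genes were 35.4% higher in astrocytes and 32.4% in the O4 sort. Hmgcs1, which makes HMG-CoA, was at 394 ± 32.7 and 767 ± 77.4 CPM (-0.96 ± 0.11), and Ebp, a late isomerase, at 24.9 and 60.1 CPM (-1.26 ± 0.10). Msmo1 (0.84 ± 0.13) and Tm7sf2 (1.01 ± 0.12), 2 other enzymes of the pathway, were higher in astrocytes.

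Secreted signals and their receptors followed, to be read beside 35.4% higher in astrocytes and 32.4% in the O4 sort over all genes. Of 36 growth factor ligands 23 were higher in astrocytes and 11 in the O4 sort. Vegfa, the vascular growth factor, was at 416 and 48.1 CPM (3.11 ± 0.15), midkine (Mdk) at 33 and 2.19 CPM (3.86 ± 0.19), Gdf11 at 34.1 and 6.63 CPM (2.34 ± 0.13) and Hgf at 39.3 and 0.169 CPM (7.66 ± 0.37). Pdgfa, the ligand of the precursor receptor Pdgfra, was higher in the O4 sort (45.3 and 127 CPM, -1.48 ± 0.11), as was Sema4d (225 and 738 CPM, -1.71 ± 0.12). Of 53 receptors 36 were higher in astrocytes and 10 in the O4 sort, with Fgfr1 (290 and 36.2 CPM, 3.00 ± 0.10), the semaphorin receptor gene Plxnb2 (181 and 23.2 CPM, 2.96 ± 0.09) and the adrenergic receptor gene Adra2a (22.1 and 0.445 CPM, 5.62 ± 0.18) on one side. On the other were Plxnb3 of the same plexin family (241 and 588 CPM, -1.29 ± 0.12), S1pr5 (-1.80 ± 0.14) and Lpar1 (-1.5 ± 0.13), receptors of sphingosine and lysophosphatidic acid.

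Of 36 genes for proteins that act on synapses and for phagocytic receptors 24 were higher in astrocytes, 7 in the O4 sort and 5 were not called, with a median of 2.09. The shares over all genes were 35.4% higher in astrocytes and 32.4% in the O4 sort. Chrdl1, a secreted antagonist of bone morphogenetic proteins that matures synapses, was at 187 and 0.898 CPM (7.68 ± 0.28), the glypican gene Gpc6 at 48.6 and 1.3 CPM (5.19 ± 0.19), Wnt7a at 73.6 and 1.3 CPM (5.75 ± 0.17) and Mfge8, which bridges dying cells to phagocytes, at 1550 and 78.5 CPM (4.30 ± 0.15). Components of the perineuronal and perinodal matrix were divided between the sorts: the link protein Hapln1 was at 177 and 0.804 CPM (7.68 ± 0.32) and the lectican Bcan at 1360 and 89.1 CPM (3.93 ± 0.20), while Tnr was at 22.1 and 414 CPM, Hapln2 at 207 and 636 CPM and Acan at 0.218 and 4.05 CPM (-4.14 ± 0.38). Of 34 genes of axon contact and nodes 9 were higher in astrocytes and 21 in the O4 sort, with a median of -0.95, beside the same shares over all genes.

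Neurofilament and tubulin genes that are used as neuronal markers were higher in the O4 sort. Nefh (chromosome 11, 4938754 to 4948064), the heavy neurofilament, was at 3.62, 4.08, 6.74 and 4.59 CPM in the ACSA2 libraries and at 110, 82.2, 105 and 140 CPM in the O4 libraries (-4.54 ± 0.20, adjusted p = 3.38e-09). Nefl (3.13 and 15.1 CPM, -2.31 ± 0.19), Nefm (-1.88 ± 0.27), Tubb3 (23.9 and 119 CPM, -2.29 ± 0.14) and the axonal kinesin gene Kif5a (68.6 and 508 CPM, -2.89 ± 0.28) went with it, as did Rph3a (7.54 and 104 CPM, -3.82 ± 0.47), which acts in vesicle release. The synaptic gene Snap25 did not, with 21.3, 28, 24 and 13.2 CPM against 12.6, 12.9, 18.1 and 22.8 CPM, and the neuron markers Reln (44.8 and 1.5 CPM, 4.92 ± 0.18) and Map2 (314 and 88.5 CPM, 1.83 ± 0.11) were higher in astrocytes. The summed neuron markers were 406 to 525 CPM in the ACSA2 sort and 292 to 327 CPM in the O4 sort.

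Of 30 tested genes of reactive astrocytes 23 were higher in astrocytes and 4 in the O4 sort, beside 35.4% and 32.4% over all genes. Vim, an intermediate filament, was at 219 and 18.2 CPM (3.59 ± 0.14), Tm4sf1 at 58.5 and 3.26 CPM (4.17 ± 0.13) and Amigo2 at 13.3 and 0.811 CPM (4.06 ± 0.23). The 4 exceptions were Serpina3n, C4b, Fkbp5 and H2-D1. Serpina3n, a protease inhibitor (chromosome 12, 104406729 to 104414329), was at 19.8, 14.4, 17.8 and 21.4 CPM in the ACSA2 libraries and at 315, 27.8, 210 and 140 CPM in the O4 libraries (-3.22 ± 0.73, adjusted p = 0.00714). The complement gene C4b (chromosome 17, 34728380 to 34743882) was at 70.9, 63.3, 68.2 and 94.8 CPM against 494, 114, 401 and 421 CPM (-2.26 ± 0.44, adjusted p = 0.00248). O4 replicate 2 was the lowest of its group in both genes and still above every ACSA2 library. Serpina3n, C4b and H2-D1 have close relatives in the genome whose reads the counting could not separate with certainty, so these values are uncertain.

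Immediate early genes, which respond to stimulation within minutes, had 12 of 21 members higher in the O4 sort and 6 in the ACSA2 sort, with a median of -0.74, beside 32.4% and 35.4% over all genes. Fos (chromosome 12, 85473890 to 85477273) was at 111, 116, 132 and 88 CPM in the ACSA2 libraries and at 431, 488, 503 and 471 CPM in the O4 libraries (-2.09 ± 0.12). Jun (136 and 408 CPM, -1.59 ± 0.10), Junb (-2.18 ± 0.19), Egr1 (66.7 and 269 CPM, -2.02 ± 0.18) and Ier2 (-2.0 ± 0.14) went the same way, while Nr4a3 (26.3 and 3.42 CPM, 2.94 ± 0.15), Ier5 (1.90 ± 0.18) and Fosl2 (1.05 ± 0.20) were higher in astrocytes. Whether handling of the cells during sorting moved these genes was not tested.

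Iron and antioxidant genes had 18 of 38 members higher in astrocytes and 9 in the O4 sort, beside 35.4% and 32.4% over all genes. Fth1, the heavy chain of the iron store ferritin (chromosome 19, 9980598 to 9985098), was at 2410, 2080, 2590 and 3030 CPM in the ACSA2 libraries and at 12700, 10400, 14800 and 21100 CPM in the O4 libraries (-2.55 ± 0.21), although its many pseudogenes make the count uncertain. Trf, the iron carrier transferrin, was at 2230 and 7230 CPM (-1.70 ± 0.17). Heph, a copper enzyme that oxidises iron for export, was at 24.3 and 0.557 CPM (5.39 ± 0.18), and the peroxiredoxin gene Prdx6 at 564 and 61.6 CPM (3.20 ± 0.12). The glutathione genes Gss (-1.33 ± 0.10) and Gstp1 (-1.34 ± 0.11), the latter uncertain because of a near copy, were higher in the O4 sort.

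The series title names MYC. Of 18 tested members of the MYC network 4 were higher in astrocytes, 7 in the O4 sort and 7 were not called, with a median of -0.08, beside 67.8% called over all genes. Myc (chromosome 15, 61985391 to 61990374) was at 7.14, 4.56, 6.87 and 3.91 CPM in the ACSA2 libraries and at 7.59, 5.72, 6.66 and 5.49 CPM in the O4 libraries (-0.21 ± 0.21, adjusted p = 0.4), a difference within the spread of the libraries. Its partner Max was not called either (53.5 ± 0.73 and 57.2 ± 3.27 CPM, -0.10 ± 0.07, adjusted p = 0.241). The paralog Mycl (chromosome 4, 122995652 to 123002485) was at 1.05, 1.92, 2.77 and 2.2 CPM against 13.4, 15.5, 24.8 and 16.7 CPM (-3.15 ± 0.26), and Mlxipl, which couples glucose to transcription, at 5.71, 7.2, 3.97 and 4.99 CPM against 0.775, 1.32, 1.14 and 0.515 CPM (2.48 ± 0.28). These were the 2 members beyond 2-fold. Mycn was called higher in the O4 sort (3.55 and 5.35 CPM, -0.58 ± 0.23, adjusted p = 0.0393), but not without ACSA2 replicates 1 or 2 or O4 replicates 2 or 3. The repressors Mnt (-0.45 ± 0.09) and Mxd1 (-0.24 ± 0.09), Zbtb17 (-0.46 ± 0.13) and the ubiquitin ligase genes Huwe1 (-0.35 ± 0.11) and Fbxw7 (-0.43 ± 0.16) were higher in the O4 sort. For Fbxw7 the sorts overlapped, with 18.2, 21.1, 19 and 18.1 CPM against 20.3, 21.6, 24.6 and 36.4 CPM. Its log2 fold change ranged from -0.54 to -0.24 without a single library at a time. Trrap (0.28 ± 0.10), Mxi1 (0.28 ± 0.08) and Mga (0.22 ± 0.09) were called higher in astrocytes. Without a single library at a time between 2 and 4 members were called higher in astrocytes and between 5 and 7 in the O4 sort.

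Of 48 MYC target genes of ribosome biogenesis 4 were higher in astrocytes, 20 in the O4 sort and 24 were not called, with a median of -0.16, 1 of them beyond 2-fold (Ldha). Over all genes tested 35.4% were higher in astrocytes and 32.4% in the O4 sort. Pes1 (29.8 and 52.6 CPM, -0.81 ± 0.09), the translation factor gene Eif4a1 (-0.68 ± 0.08) and Srm of polyamine synthesis (-0.65 ± 0.08) were higher in the O4 sort and Odc1, which acts a step earlier in the same pathway, in astrocytes (1.22 ± 0.12). Among 24 cell cycle genes 7 were higher in astrocytes (35.4% over all genes), 5 in the O4 sort (32.4% over all genes) and 12 were not called. The replication genes Pcna (-0.78 ± 0.11) and Mcm2 (-0.88 ± 0.13) were higher in the O4 sort, Kif11 (2.21 ± 0.26) and Rrm2 (1.98 ± 0.24) in astrocytes, and Mki67 was at 5.04, 9.73, 14.3 and 14.6 CPM against 9.61, 4.86, 8.48 and 2.83 CPM (0.77 ± 0.42, adjusted p = 0.137).

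Tardbp, which encodes TDP-43 (chromosome 4, 148612382 to 148627019), was at 80.9, 77.2, 74.3 and 95.2 CPM in the ACSA2 libraries and at 81.3, 92.6, 84.1 and 80.2 CPM in the O4 libraries (-0.04 ± 0.09, adjusted p = 0.695), so the groups overlapped. Whether reads of the mutant allele were counted under this symbol was not stated. Of 39 TDP-43 and ALS genes 11 were higher in astrocytes and 20 in the O4 sort, with 5 and 2 beyond 2-fold. Over all genes the shares were 35.4% and 32.4%, and beyond 2-fold 18.6% and 5.37%. Chchd10, a mitochondrial protein, was at 92 and 3.46 CPM (4.71 ± 0.20), Anxa11 at 10.2 and 0.805 CPM (3.65 ± 0.22) and Tuba4a at 59 and 4.79 CPM (3.61 ± 0.13). The 2 beyond 2-fold in the O4 sort were Kif5a and Dctn1, a subunit of the dynein activator dynactin (211 and 529 CPM, -1.33 ± 0.11), and Pfn1 (-0.69 ± 0.07) and Chmp2b (-0.93 ± 0.09) were higher there by less. RNA-binding and splicing regulators had 14 of 36 higher in astrocytes and 13 in the O4 sort. These are close to the shares over all genes (35.4% and 32.4%). Msi1 (131 and 5.83 CPM, 4.46 ± 0.20) and Celf2 (136 and 12.2 CPM, 3.47 ± 0.18) were higher in astrocytes and Elavl3, best known from neurons, in the O4 sort (345 and 1040 CPM, -1.59 ± 0.13). Of 4 tested sex-linked genes 2 were called higher in astrocytes and 1 in the O4 sort, with no difference beyond 2-fold.

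**Figure D5:**
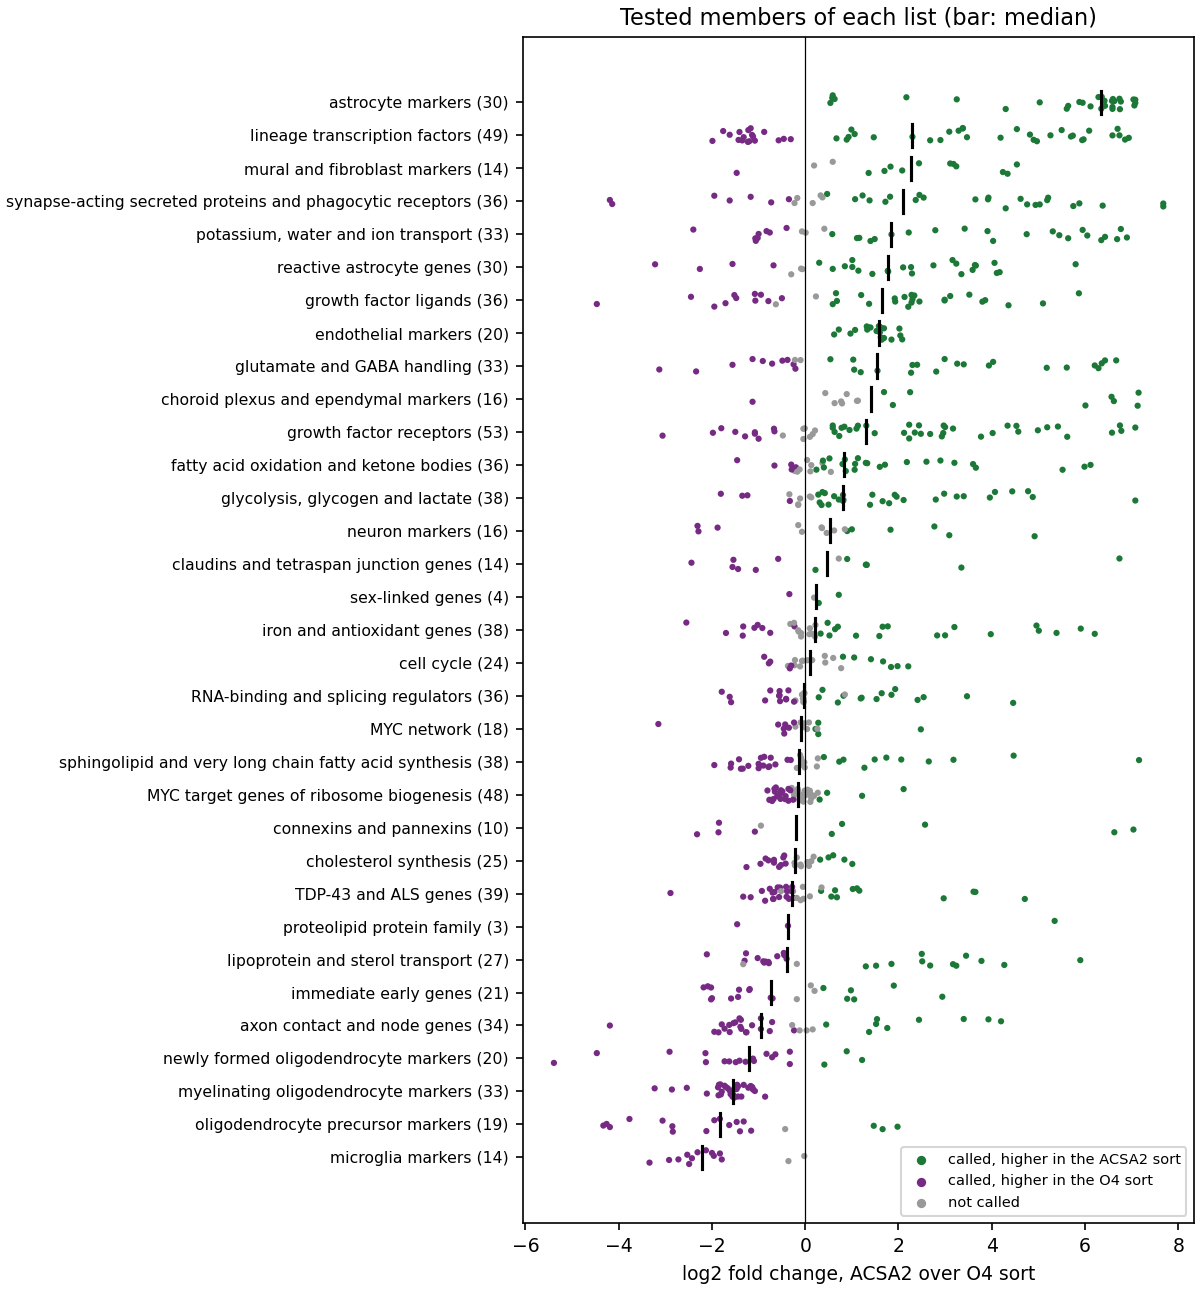
log2 fold change (x axis, ACSA2 over O4 sort) of each tested member of the 33 gene lists, ordered by the list's median (black bar), with called genes in green (higher in the ACSA2 sort) or purple (higher in the O4 sort) and others in grey. Astrocyte markers have the highest median (6.35), and the MYC network and the MYC targets lie close to 0 apart from a few genes.

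Libraries of the same sorts from mice at 6 months (5 ACSA2 and 4 O4) were not used above and gave a repeat, with 70% of 16363 genes called, 36.6% higher in astrocytes and 33.4% in the O4 sort. Of the 2814 genes beyond 2-fold higher in astrocytes at 3 months 2327 were so at 6 months, which is 82.7% of the 3 month genes and 74.9% of 3106 (19% of genes tested) at 6 months. For the O4 sort 618 of 811 were, or 76.2% and, of 1552 at 6 months (9.48%), 39.8%. Another 71 astrocyte genes and 1 O4 gene (St8sia5) were called in the opposite direction at 6 months. Pecam1 was 1 of the 71: at 6 months it was at 15 ± 6.11 CPM in the ACSA2 sort (SD, n = 5) and 47 ± 13.4 CPM in the O4 sort (SD, n = 4). Its log2 fold change went from 1.69 at 3 months to -1.68 ± 0.25 at 6 months, and the difference between ages, tested after the 6 month values were seen, was 3.34 ± 0.37 (edgeR, adjusted p = 3.26e-05). Of 20 endothelial markers 17 were higher in the O4 sort at 6 months, and the difference between ages was called for 18, against 16.4% of all genes tested. Cholesterol synthesis also changed sides, with 18 of 25 genes higher in astrocytes and 1 in the O4 sort at 6 months and the difference called for 20, all in that direction. Mvk, an early enzyme of the pathway, was the named gene that crossed, from -0.79 ± 0.11 to 0.59 ± 0.13. Other lists also shifted. At 6 months 4 of 18 neuron markers were higher in astrocytes and 10 in the O4 sort. For choroid plexus and ependymal markers the counts were 6 and 8 of 16, and for reactive astrocyte genes 15 and 9 of 33. The difference between ages was called for 9, 8 and 17 members of these lists, and for 11 of 15 mural and fibroblast markers. Slc1a2 (6.34 ± 0.36), Gpr17 (-5.87 ± 0.35) and Mycl (-3.08 ± 0.27) were at 6 months close to their 3 month values, and Myc was again not called (-0.25 ± 0.23). The sets of libraries at the 2 ages differ in age and in any batch that goes with it, and these cannot be told apart.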

How the data were processed

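RNA of 4 ACSA2 and 4 O4 libraries at 3 months was compared. Per the submitters' processing notes, the tools were featureCounts 2.0.1, UMI-tools 1.0.1 for molecular identifiers, the aligner STAR 2.7.7a, DESeq2 and, for trimming, fastp. The notes name several genome builds without saying which was used for the tables, so positions here apply to GENCODE vM21 and windows to RefSeq. The authors deposited raw counts per gene, 1 table per sort, and TPM values, which are scaled for gene length and total.

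The 2 count tables were joined by gene symbol (55291 genes). Genes passed a filter at a minimum count of 10 (15100 genes), were scaled with TMM and tested with edgeR 4.0.16 in R 4.3.3 (quasi-likelihood test, and a test against a fold of 2), two-sided, with Benjamini-Hochberg adjustment over all genes tested. SE was computed as the size of the log2 fold change over the root of the F statistic. Both steps were tested on simulated data. DESeq2 1.42.0, limma 3.58.1 (voom, and log2 of deposited TPM plus 1), other filters and scalings, a joint fit with 6 months and each library left out were alternatives. The 6 month values come from that joint fit.

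The 33 gene lists and their members were chosen with earlier results of these data known. Named genes are the up to 12 largest differences each way, up to 3 members of each list each way with the smallest p, a panel, and all tested connexins, proteolipid proteins and members of the MYC network. Others, 31 genes in all, were chosen after their values were seen. Counting error, not biological spread, is what depth reduces, and genes under about 1 CPM rest on few counts. Promoters on chromosome 18 were not searched. Some genes of these lists are not reported here.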

Additional observations from a re-analysis of the deposited data

Results flagged for a closer look

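Within each group of 4 libraries, a library was listed where its gap to the nearest other library was above Dixon's critical value. Of 456 groups of values 30 were listed, and chance alone lists about 1 in 20 groups. ACSA2 replicate 4 had 14 of the 30. It was the lowest ACSA2 library for Aqp4 (716 CPM), Atp1b2 (2360 CPM), Celf2 (102 CPM), Cpt1a (123 CPM), Cst3 (1560 CPM), Dag1 (287 CPM), F3 (414 CPM), Id2 (159 CPM), Prdx6 (451 CPM), Slc1a3 (2610 CPM), Soat1 (169 CPM), Sox9 (410 CPM) and Xylt1 (122 CPM), and the highest for Pdgfra (16 CPM). It also had the highest sum of myelinating markers of its group, and the part of other cells' RNA in this was not tested.

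O4 replicate 4 had 7: Csf1r (8.92 CPM), Ep400 (142 CPM), Gria4 (128 CPM), Mobp (12000 CPM), Odc1 (25.5 CPM), Panx2 (5.23 CPM) and Ppargc1a (1.2 CPM). O4 replicate 1 stood apart for Ier5 (3.1 CPM) and Junb (56.2 CPM), and O4 replicate 2 for Lgi4 (8.87 CPM). ACSA2 replicate 1 stood apart for Cdh5 (10.8 CPM), Cers6 (9.8 CPM) and Hydin (53.3 CPM), replicate 2 for C1qb (0.841 CPM) and Rph3a (11.6 CPM), and replicate 3 for Npy (5.78 CPM).

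For 10 named genes the log2 fold change between the sorts was called in opposite directions at 3 and at 6 months and the difference between ages was itself called (edgeR). The log2 fold change at 3 months minus that at 6 months was 3.71 for Flt1, 3.46 for Slco1a4, 3.39 for Cdh5, 3.34 for Pecam1, 3.34 for Cldn5 and 3.14 for Ly6c1, which are endothelial genes. It was 2.39 for the immediate early gene Fosl2, 2.36 for the connexin Gja4, 1.59 for Prom1 and -1.41 for Mvk. Reads of Ly6c1 may be shared with close relatives, so its value is uncertain.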

How the results depend on the processing

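The number of called genes (10231) lay between 9794 and 10245 without 1 library at a time and between 9901 and 11425 under the other settings, and no call shared with an alternative changed sign. The number beyond 2-fold (3625) lay between 3422 and 3796 without 1 library, and was 3029 with DESeq2, 3144 with limma-voom and 2553 with limma on TPM. Correlations of same-numbered libraries of the 2 sorts, after removal of the group means, were 0.0528, 0.0986, -0.106 and -0.0227. With 4 libraries a sort these values cannot show whether the sorts shared animals. With the replicate number as a block 10024 genes were called and 3628 beyond 2-fold. With limma on TPM 326 genes were beyond 2-fold higher in the O4 sort. The members higher in the O4 sort were then 3 for the cell cycle, 5 for glutamate and GABA handling and 2 for the MYC network. They were 3 for fatty acid oxidation (3 also in the joint fit with 6 months), while 7 MYC targets were higher in astrocytes. With no filter and in the joint fit 1 member of the MYC network and 1 sex-linked gene were higher in astrocytes. Without 1 library the counts ranged from 6 to 10 (glutamate, higher in the O4 sort), 3 to 5 (connexins), 2 to 4 (MYC network) and 1 to 3 (sex-linked genes, the last 3 higher in astrocytes). Genes that were not called changed sign: with TPM Ep400 (0.07), Kcnj10 (0.06), Max (0.03), Mlx (0.06) and Tardbp (0.07), with limma-voom Mlx (0.0) and with no filter Mlxip (-0.01). Without 1 library Mlx ranged from -0.16 to 0.09, Mlxip from -0.04 to 0.1, Mxd4 from -0.01 to 0.13, Tardbp from -0.12 to 0.0 and Ttr from -0.09 to 1.01. Of 249 named genes 221 kept their direction and call in every setting and 28 did not. Except where a setting itself removes genes or samples, the cause was not tested.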

Other observations

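Among the 31 genes at least 10-fold higher in the O4 sort, chosen after their values were seen, several belong to no list above and were low in both sorts. Slc5a7, the choline transporter, averaged 0.14 CPM in the ACSA2 sort and 3.02 CPM in the O4 sort. The calcium-sensing receptor gene Casr averaged 0.0413 and 2.54 CPM, and the glutamate receptor gene Grm4 0.632 and 7.53 CPM.

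The palindrome CACGTG, the E-box to which MYC and MAX bind, was counted in the promoters of the MYC targets of ribosome biogenesis. Counted by gene, it was found for 8 of 41 searched (19.5%), against 9.66% for all tested genes and 6.86% for all genes with a searched promoter. Of the genes with a match, Ldha was higher in astrocytes (2.11 ± 0.11) and Eif4a1 in the O4 sort (-0.68 ± 0.08), while Nop2 (0.02 ± 0.13), Eif4e (0.10 ± 0.07) and Hspd1 (-0.04 ± 0.14) were not called. A match is a description of the letters in the window.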
